A study of Mus musculus with 40 samples.

Results

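Monomethylation of histone H3 lysine 4 (H3K4me1) was profiled by ChIP-Seq in brown adipose tissue of chow-fed C57BL/6N wild type mice that were kept warm (mouse 1 and mouse 2, by the methods at the ordinary housing temperature) or held at 4 °C for 24 h (mouse 4 and mouse 5). The peaks of the 4 lists were joined wherever they overlapped, and the 37921 merged regions, out of 457842 peaks in the 32 lists of the whole series, were sorted by which of the 4 mice held a peak there. All 4 mice received normal chow diet (NCD) and were 20 weeks old. The other 4 mice of the series (mice 7, 8, 10 and 11), used here as a second set for the acetylation mark, took a high-fat diet (HFD) for 12 weeks after chow until week 8. The sex of the mice was not stated in the sources used here, the methods can be read as pooling tissue of 2 mice per library, and the series text and the methods give different names for the fat depot. P-values therefore measure the spread between libraries. Fewer cells of a type and a weaker mark per cell cannot be told apart in tissue ChIP-Seq.

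H3K4me1 marks enhancers, whether poised or in use, and the flanks of promoters. H3K27ac is added where such an element is active, and H3K4me3 sits on the nucleosomes around transcription start sites (TSS). In brown adipose tissue, which burns fat to produce heat, cold reaches the adipocytes through noradrenaline, adrenergic receptors and cAMP, and enhancers bound by PPARG, C/EBP and EBF factors carry the thermogenic genes.

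The cold mice shared 2414 regions that neither warm list held, which was 6.37% of all regions. Mouse 2 and mouse 5, a warm and a cold mouse, shared 5059 regions that no other list held, and mouse 2 and mouse 4 shared 1571. The number held by both cold mice alone therefore lay between those of the mixed pairs. With the lists of mice 2, 4 and 5 cut to equal length it was the lowest of the 3, at 2073 against 2325 for mice 2 and 5 and 2317 for mice 2 and 4. Mouse 2, mouse 4 and mouse 5 shared 6568 regions that mouse 1 lacked, and 438 regions were held by all 4 mice. Only 7 regions (0.0185%) were held by both warm mice and neither cold mouse, beside a list of 592 peaks in mouse 1 and of 21356 in mouse 2. Presence in a list was all that separated these patterns, so the counts are a description without a test.

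**Figure D1:**
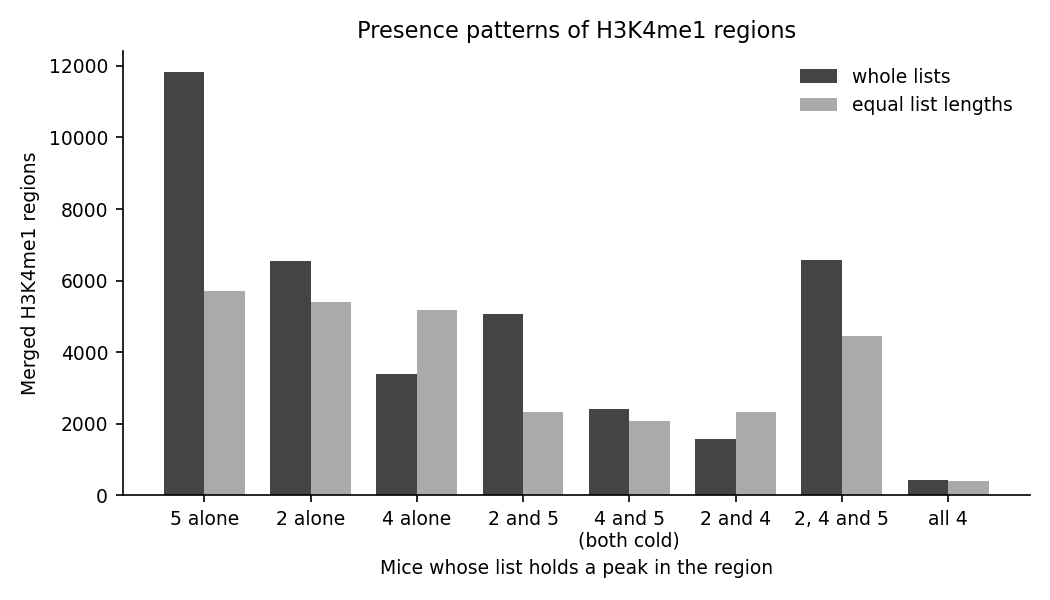
Number of merged H3K4me1 regions (y axis) for 8 presence patterns (x axis, the mice whose list holds a peak), for whole lists (dark) and for lists of mice 2, 4 and 5 cut to 15676 peaks (light). Regions of both cold mice alone numbered 2414 with whole lists, between the 2 mixed pairs, and 2073 with equal lengths, below both.

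Windows of 200 bases at the summits of the highest-ranked regions show the sites behind these patterns. The first 4 were held by both cold mice alone for H3K4me1 and for H3K27ac, the next 2 by both cold mice alone for H3K4me1, the next 2 by mice 2, 4 and 5, and the last 3 by all 4 mice. The reference is GRCm38, plus strand, and capitals mark matches to any of the motifs listed after the sequences.
Pbp2 region, chr6:135304643-135304842: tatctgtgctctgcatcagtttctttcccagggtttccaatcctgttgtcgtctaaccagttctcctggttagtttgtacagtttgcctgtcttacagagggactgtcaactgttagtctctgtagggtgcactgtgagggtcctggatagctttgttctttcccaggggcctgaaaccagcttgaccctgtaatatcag
Col4a2 intron region, chr8:11394065-11394264: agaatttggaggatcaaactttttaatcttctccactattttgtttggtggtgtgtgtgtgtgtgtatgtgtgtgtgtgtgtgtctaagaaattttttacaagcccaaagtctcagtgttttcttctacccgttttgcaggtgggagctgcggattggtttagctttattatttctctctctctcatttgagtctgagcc
Kirrel intron region, chr3:87151115-87151314: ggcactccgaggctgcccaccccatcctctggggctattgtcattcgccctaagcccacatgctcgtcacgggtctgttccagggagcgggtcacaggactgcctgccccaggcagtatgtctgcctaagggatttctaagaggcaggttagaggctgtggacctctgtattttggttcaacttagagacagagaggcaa
Abcg2 intron region, chr6:58610846-58611045: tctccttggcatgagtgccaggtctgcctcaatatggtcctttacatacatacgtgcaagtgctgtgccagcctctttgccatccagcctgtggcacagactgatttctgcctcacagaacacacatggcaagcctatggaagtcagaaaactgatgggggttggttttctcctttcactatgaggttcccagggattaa
Gm15322 region, chr13:111946450-111946649: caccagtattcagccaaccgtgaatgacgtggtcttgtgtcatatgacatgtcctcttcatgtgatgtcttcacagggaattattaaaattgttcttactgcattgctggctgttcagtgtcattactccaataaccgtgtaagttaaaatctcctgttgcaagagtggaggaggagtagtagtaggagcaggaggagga
Grk5 intron region, chr19:60997334-60997533: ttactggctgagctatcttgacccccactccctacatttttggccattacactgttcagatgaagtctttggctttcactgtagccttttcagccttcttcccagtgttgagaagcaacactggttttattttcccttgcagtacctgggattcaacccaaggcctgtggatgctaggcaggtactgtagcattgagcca
Klhl25 intron region, chr7:75853020-75853219: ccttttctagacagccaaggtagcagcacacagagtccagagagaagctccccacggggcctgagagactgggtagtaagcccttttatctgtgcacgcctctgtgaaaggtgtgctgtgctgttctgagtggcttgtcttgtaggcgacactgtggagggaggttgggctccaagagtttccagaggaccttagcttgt
2700054A10Rik region, chr17:13590518-13590717: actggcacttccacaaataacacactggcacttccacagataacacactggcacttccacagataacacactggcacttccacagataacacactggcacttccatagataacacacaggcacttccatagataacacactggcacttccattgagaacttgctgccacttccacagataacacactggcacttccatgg
Tspan18 intron region, chr2:93269388-93269587: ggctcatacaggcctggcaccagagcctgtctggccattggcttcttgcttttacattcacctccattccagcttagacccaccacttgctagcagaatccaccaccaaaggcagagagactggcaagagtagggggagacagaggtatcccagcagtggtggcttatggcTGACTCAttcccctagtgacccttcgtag
Gm28502 region, chr15:75086709-75086908: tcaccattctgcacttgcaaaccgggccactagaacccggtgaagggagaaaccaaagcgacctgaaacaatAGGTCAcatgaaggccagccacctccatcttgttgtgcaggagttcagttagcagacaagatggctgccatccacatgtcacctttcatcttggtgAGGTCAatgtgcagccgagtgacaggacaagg
Cldn34d intron region, chrX:76598883-76599082: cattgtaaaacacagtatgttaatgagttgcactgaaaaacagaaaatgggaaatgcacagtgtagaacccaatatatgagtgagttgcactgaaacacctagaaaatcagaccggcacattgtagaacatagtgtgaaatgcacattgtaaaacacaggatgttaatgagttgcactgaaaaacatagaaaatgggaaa

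The motifs searched on both strands were CRE (TGACGTCA), AP-1 (TGANTCA), C/EBP (TTGCNNAA), ERR (TCAAGGTCA), the nuclear receptor element AGGTCA, which also lies inside the ERR motif, a pair of AGGTCA elements 1 base apart (DR1), NFI (TTGGC and GCCAA 5 bases apart) and EBF (TCCC and GGGA 2 bases apart). None of the 6 windows of cold-only regions held a match, the Tspan18 window held an AP-1 match and the Gm28502 window held 2 AGGTCA matches. The Pbp2, Kirrel and Abcg2 windows were 48% to 57% GC and the Col4a2 window, which carries a run of GT repeats, was 40%. The 2700054A10Rik window is a tandem repeat, with 85.5% of its bases masked.

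Over all regions of each pattern the C/EBP motif was present in 8.54% of the 2413 windows of both cold mice alone, in 6.38% of the windows of mice 2, 4 and 5, in 3.91% of those of all 4 mice and in 7.29% of all 37912 windows. Regions of mouse 4 alone, mouse 5 alone and mouse 2 alone held it in 8.27%, 7.95% and 6.87%. AP-1 matches were found in 5.76% of the cold-only windows against 5.75% in all. CRE, the motif of the cAMP-responsive factor CREB, was in 0.124% of the cold-only windows against 0.148% in all, and AGGTCA in 16.0% against 15.8%. ERR matches were in 0.746% against 0.762%, with 0.23% in regions of all 4 mice and 1.03% in those of mouse 4 alone, and EBF matches in 0.622% against 0.855%. DR1 and NFI were in under 0.2% of the windows of each pattern, except that 1 of the 203 windows that were cold-only in both marks held NFI (0.49%). GC content fell in the same order as the C/EBP share rose, with medians of 54% in regions of all 4 mice, 51.5% in those of mice 2, 4 and 5, and 49% in cold-only regions. Its part in the motif shares was not tested.

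The lists differed in how strong a site had to be before it was listed. The fragments over each summit were recovered from the fold enrichment and p-value of each peak, and coverage is that number divided by the mean of the library. The weakest peak of mouse 1 stood on 32 fragments, or 11.3 times its library's mean, whereas the lists of mice 2, 4 and 5 reached down to 14, 14 and 9 fragments (7.32, 6.49 and 6.54 times the mean). Even above 11.3 times the mean, mouse 1 had 589 listed peaks, and the other lists had 8946, 2239 and 7298. At 15 times the mean or more, mouse 1 had 235 peaks and mouse 4 had 199, so the shortest list was not the shortest among strong sites. The depth of the ChIP libraries was 14.8, 9.46, 10.7 and 6.74 fragments per kb in mice 1, 2, 4 and 5, in the inverse order of their numbers of peaks. Its part in the number of peaks was not tested.

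**Figure D2:**
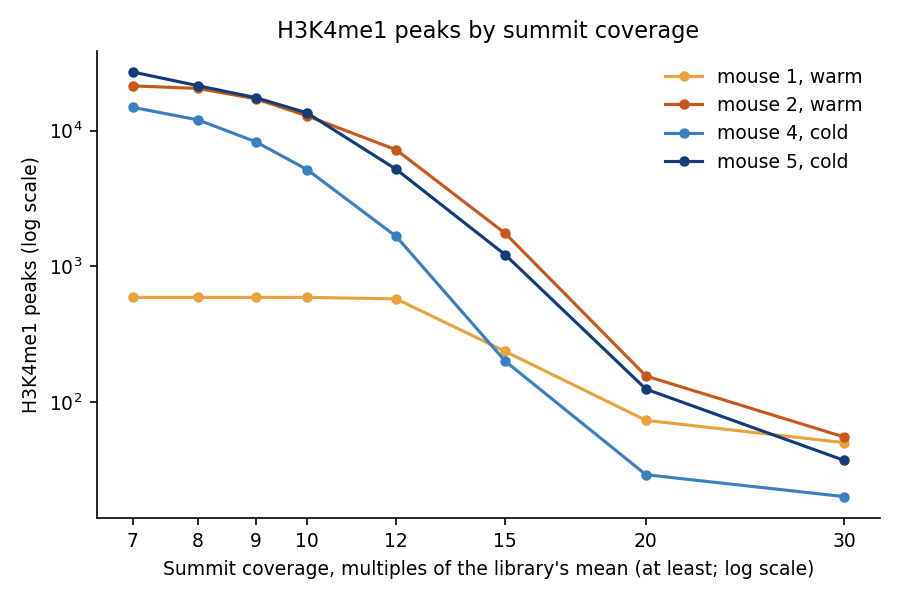
Number of H3K4me1 peaks (y axis, log scale) whose summit coverage is at least the value on the x axis (multiples of the library's mean, log scale), 1 line per mouse. Mouse 1 is level at 589 peaks up to 10 times the mean, and mice 2 and 5 lie together above mouse 4 from 8 times upwards.

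The number, position, width and acetylation of the peaks did not separate cold from warm. The lists held 592, 21356, 15676 and 27568 peaks in mice 1, 2, 4 and 5, and both cold lists lay on either side of mouse 2 (difference of means 0.77 on the log10 scale, exact permutation test, two-sided, p = 0.667, 2 against 2, where 0.333 is the smallest p possible). The share of peaks within 1000 bp of a TSS was 7.43%, 12.99%, 8.92% and 12.3%, with both cold values between the warm ones. Median widths were 276.5, 375, 352 and 374 bp, and the share overlapping H3K27ac of the same mouse was 48.3%, 49.6%, 53.0% and 46.0%. For the last 3 measures the exact permutation p was 1. The coverage of listed peaks did separate the groups, with medians of 14.5 and 11.0 times the mean in the warm mice and 9.27 and 9.45 in the cold mice, as did the lowest coverage listed, given before. The medians follow the same order of mice as these lowest values, which cut each list from below. They are therefore no measure of a difference in the mark. Overlap between lists did not follow temperature either: the Jaccard index (bases covered by both lists divided by bases covered by either) was 0.246 for the cold mice, 0.269 for mice 2 and 4, and 0.294 for mice 2 and 5.

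Most H3K4me1 regions lay inside genes, away from start sites. Of the cold-only regions 65.2% had their summit in an intron, 22.1% between genes, 4.02% in an exon and 8.70% within 1000 bp of a TSS, with a median distance of 10044 bp to the nearest one. Regions of all 4 mice were intronic in 73.3% and at a TSS in 8.45%. The TSS share was 8.45% to 10.3% in the 5 patterns of all 4, mice 2, 4 and 5, mice 4 and 5, mice 2 and 4, and mouse 4 alone, and 14.2% to 17.4% in the 3 patterns of mice 2 and 5, mouse 5 alone and mouse 2 alone. The low shares thus went with the list of mouse 4, which is a cold mouse, and not with both cold lists. Width rose with the number of mice, from 272 to 303 bp in regions of a single list among mice 2, 4 and 5 to 521 bp in cold-only regions, 890 bp in those of mice 2, 4 and 5 and 1565.5 bp in those of all 4 mice, a merged region being the union of its peaks.

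**Figure D3:**
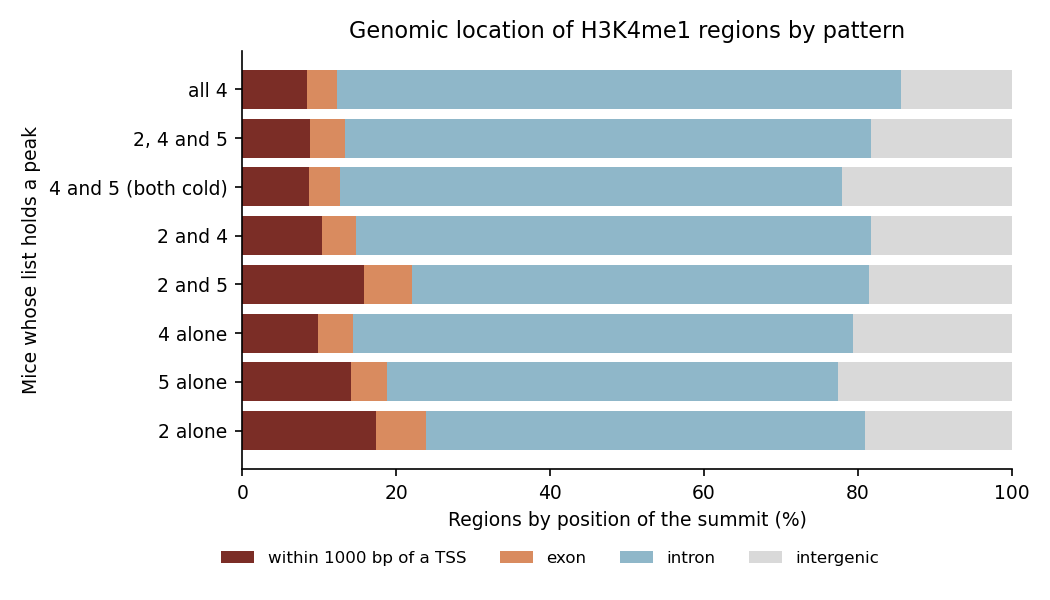
Share of H3K4me1 regions (x axis, percent) by position of the summit, for 8 presence patterns (y axis). The share within 1000 bp of a TSS is 8.45% to 10.3% in patterns with mouse 4 and 14.2% to 17.4% in the others.

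Acetylation at the cold-only regions was compared between the temperatures in all 8 mice. In the chow-fed mice 16.1%, 38.2%, 48.1% and 45.7% of the cold-only regions (mice 1, 2, 4 and 5) overlapped an H3K27ac peak, so both cold mice were above both warm mice. Other patterns also had the higher shares in the mice that listed the H3K4me1 peak. At regions of mice 2 and 5 the shares were 51.8% and 51.0% in those mice and 41.2% in mouse 4. At regions of mouse 2 alone they were 34.6%, 27.3% and 30.9% in mice 2, 4 and 5. The gap at cold-only regions is therefore not particular to the cold. In the HFD mice the shares of cold-only regions were 4.35% and 40.3% in the warm mice 7 and 8 and 18.9% and 49.7% in the cold mice 10 and 11, and there the groups overlapped. Regions of mice 2, 4 and 5 with or without mouse 1 were the yardstick for differences between whole H3K27ac lists, and carried acetylation in 34.2%, 66.7%, 66.2% and 68.2% of cases on chow and in 9.83%, 57.7%, 35.3% and 69.4% on HFD. Cold-only regions were narrower than those of mice 2, 4 and 5 without mouse 1 (medians of 521 and 890 bp), and the part of width was not tested. The share of cold-only regions minus that of the yardstick was -19.2 ± 2.57 points in cold mice and -17.4 ± 9.40 points in warm mice (mean ± SD, n = 4 each). The difference of -1.83 points was within the spread (exact permutation test over 70 assignments, two-sided, p = 0.686). Within chow it was 2.99 points (exact p = 1) and within HFD -6.66 points (exact p = 0.667), each 2 against 2.

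**Figure D4:**
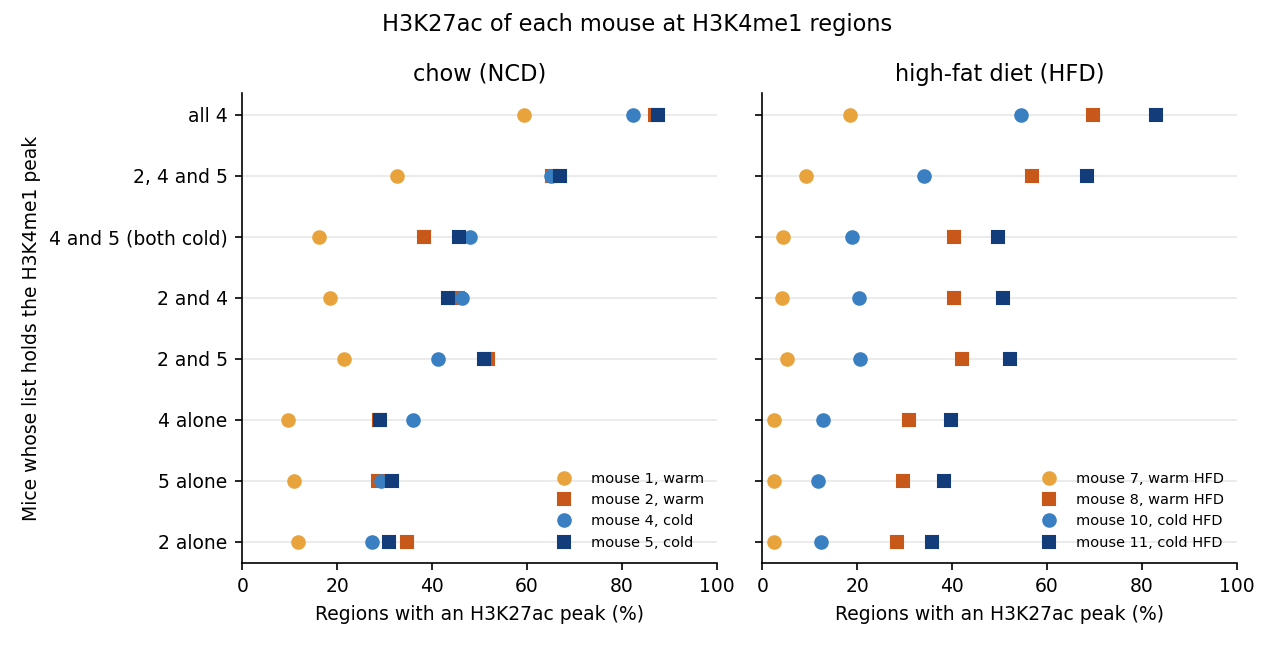
Share of H3K4me1 regions with an H3K27ac peak (x axis, percent) for 8 presence patterns (y axis), 1 point per mouse, chow on the left and HFD on the right. On chow both cold mice (blue) exceed mouse 2 in the regions of mice 4 and 5, with 48.1% and 45.7% against 38.2%. In the regions of mice 2 and 5, these 2 mice exceed mouse 4, with 51.8% and 51.0% against 41.2%. Mouse 1 is lowest on chow in all 8 patterns, and on HFD mouse 8 (warm) lies between the cold mice in every pattern.

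Where more of mice 2, 4 and 5 held H3K4me1, H3K27ac was more frequent, in each of the 8 mice. It rose on chow from 9.55% to 35.9% in regions of mouse 4 alone to 32.6%, 65.3%, 65.1% and 66.9% in those of mice 2, 4 and 5 and 59.4%, 87.0%, 82.4% and 87.7% in those of all 4. Median width rose too, from 272 bp in regions of mouse 4 alone to 890 and 1565.5 bp in the other 2 sets. A wider region meets a peak more easily, and the part of width was not tested. Acetylation in both cold mice and neither warm mouse was found at 4.23% of all regions (1605), at 8.45% of the cold-only ones (204) and at 5.15% of those of mice 2, 4 and 5 (338). It was found at 4.63% of the regions of mouse 4 alone and 4.18% of those of mouse 5 alone, near the 4.23% background. Both marks of a chow-fed mouse share chromatin and input. The higher share at cold-only regions, which were chosen by the lists of the same cold mice, is therefore no independent evidence of a change in the cold. Acetylation in both warm and neither cold mouse was at 29 of the 37921 regions, none of them cold-only. Of the cold-only regions 376 were acetylated in all 4 mice and 986 in none of them.

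The HFD mice, which had no part in choosing the 204 regions marked in both cold mice alone by H3K4me1 and H3K27ac, did not separate by temperature there. H3K27ac was present at 1 of 204 (0.49%) in mouse 7 and 86 (42.2%) in mouse 8, both warm, and at 38 (18.6%) in mouse 10 and 161 (78.9%) in mouse 11, both cold. Against the share over all regions this was -3.91, 4.69, 0.32 and 32.1 points. The 1 region of mouse 7 was on mitochondrial DNA, and it is counted in mice 8, 10 and 11 too. Mouse 11 stood high and mouse 10 did not (exact permutation p = 0.667, 2 against 2). The H3K4me1 lists of the HFD mice, which were not used to sort the regions either, held 12 and 18 peaks in mice 7 and 10, so only mice 8 and 11 could be read. Mouse 8, warm, had an H3K4me1 peak at 32.7% of the cold-only regions, 48.0% of those of mice 2, 4 and 5 and 25.8% of all regions, and mouse 11, cold, at 14.8%, 32.99% and 13.5%. The H3K27ac lists of mice 7, 8, 10 and 11 held 3224, 33798, 14511 and 40604 peaks, and the part of list length was not tested.

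H3K4me3 was listed more often in the cold mice at the regions shared by all mice. It was listed less often at the cold-only ones and over all regions, and the difference between the sets was not tested. At the 438 regions of all 4 mice it was present in 15.5% and 20.1% in the warm mice and in 34.9% and 32.4% in the cold mice, 15.9 points higher on average. At the 6568 regions of mice 2, 4 and 5 the shares were 14.1%, 16.3%, 17.8% and 17.0%, and at the cold-only regions 12.4%, 12.8%, 8.62% and 9.49%, a difference of -3.58 points. In each of the 3 sets the temperatures did not overlap, which gives the smallest exact p that 2 against 2 allows, 0.333. Over all 37921 regions the shares were 17.6%, 18.5%, 15.1% and 16.4%, lower in both cold mice as well. Regions of mouse 4 alone had 10.3%, 10.5%, 6.55% and 6.61%, and those of mouse 2 alone 21.5%, 22.6%, 18.4% and 20.4%. The lower share in the cold was therefore not particular to cold-only regions. Over 1000 bp from any TSS the shares in regions of all 4 mice were still 12.6%, 17.3%, 32.4% and 30.7% (398 regions). H3K4me3 lists were of similar length in the 4 mice, with 20304, 21024, 22321 and 22692 peaks. H3K27me3, the mark of Polycomb repression, was at under 0.1% of the cold-only regions in every chow-fed mouse.

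Against H3K27ac of the same mice, H3K4me1 peaks were narrower and farther from start sites. Their share at a TSS was 10.4% ± 2.67 against 40.5% ± 9.58 (SD, n = 4), and their median width 344 ± 46.5 bp against 570 ± 74.9 bp. Both differences had the same direction in 4 of 4 mice (exact permutation test, two-sided, p = 0.0286, adjusted over 3 measures p = 0.0429). The number of peaks was lower in 4 of 4 mice as well, a difference of -0.48 on the log10 scale, with an exact permutation p of 0.171. With the mouse as a replicate block, sign changes over 4 mice gave an exact p of 0.125 for each measure, the smallest they allow.

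The strongest cold-only regions stood on few fragments. Sharing the highest rank in the nuclear genome were a region between genes, chr13:111946277-111946786, and one in a UTR of Naa40 near Cox8a, chr19:7226763-7227336, each with 27 fragments in mouse 4 and 22 in mouse 5. The former carried H3K27ac in mice 2, 4 and 5 and the latter in all 4 mice. A region in an intron of Grk5, a kinase that desensitises G protein-coupled receptors, had 28 and 21 fragments, and one upstream of Eln, the gene of elastin, had 26 and 20. The Grk5 region was acetylated in all 4 mice, and the Eln region in none.

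Regions marked in both cold mice alone by both marks were led, in the nuclear genome, by the one near Pbp2, in an intron of Gm36640, with 30 fragments (13.9 times the mean) in mouse 4 and 18 (13.1 times) in mouse 5. The region in an intron of Col4a2, a basement membrane collagen, had 25 and 22 fragments, and it lies beside a wide region of all 4 mice in the same intron with 41, 36, 40 and 31 fragments. An intron of Kirrel, a cell adhesion gene, had 25 and 21. An intron of Abcg2, an efflux transporter, had 24 and 26. Further regions lay near Slc45a4 (29 and 16), Prelp, a matrix proteoglycan (27 and 16), Arid5b, a regulator of adipocyte differentiation (23 and 21), and Tk1, thymidine kinase (25 and 16). On the coverage scale the Col4a2 and Kirrel regions stood at 11.6 times the mean in mouse 4 and at 16.0 and 15.3 times in mouse 5. The Pbp2, Col4a2 and Kirrel regions were thus above the lowest coverage listed in mouse 1 (11.3 times) and in mouse 2 (7.32 times), and their levels in those mice, which listed no peak there, are not known.

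The highest rank among the cold-only regions, in both marks, belonged to mitochondrial DNA, which carries no histones. H3K4me1 peaks on it numbered 3 in mouse 4 and 4 in mouse 5 and 0 in both warm chow-fed mice, at folds of 1.23 to 2.15. All 4 HFD mice had them too, warm mice included, with 4, 8, 4 and 4 peaks in mice 7, 8, 10 and 11, at folds of up to 4.00. The H3K27ac lists held such peaks in the same 6 mice and in neither mouse 1 nor mouse 2.

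Regions of mice 2, 4 and 5 reached higher counts at named sites. The summit in an intron of Klhl25, an adaptor of a ubiquitin ligase, had 40, 36 and 28 fragments in mice 2, 4 and 5, and that in an intron of Tns1, a focal adhesion gene, had 35, 36 and 28. Amotl2, Coa7, Pmp22, Sh3bp5 and Stk10 had 36 to 44, 26 to 38 and 24 to 32 fragments in the same mice. Coverage at the 6568 regions had a median of 12.0, 9.74 and 11.6 times the mean in mice 2, 4 and 5. It was lower in both cold mice than in mouse 2 at 3576 of them (54.4%) and higher in both at 824 (12.5%), and a shift of a whole library and a change at these regions cannot be told apart. The list of mouse 2 begins at 7.32 times the mean and those of mice 4 and 5 at 6.49 and 6.54. Lower values in the cold are thus favoured in advance, and the counts are no measure of a change.

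Among regions of all 4 mice, the intron of Tspan18, a tetraspanin, had 37, 41, 44 and 28 fragments, and that of Sept9, a septin, had 50, 49, 39 and 25. Their coverages were within 13.1 to 25.6 times the mean. The regions at Gm28502 and Cldn34d, whose windows are among the sequences given, were of another kind, with 632, 481, 313 and 290 and with 301, 221, 261 and 128 fragments. Their folds over input were 2.77 to 4.95 and 3.15 to 6.27 while their coverages were 93.1 to 252 times the mean. Coverage was lower in both cold mice than in both warm mice at 147 of the 438 regions (33.6%) and higher in both at 12 (2.74%). The list of mouse 1 begins at 11.3 times the mean, and those of mice 4 and 5 at 6.49 and 6.54. These listing limits favour lower values in the cold in advance, so the counts are no measure of a change.

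The 7 warm-only regions lay nearest to genes such as Rny3, Mir6546 and Gm26917, which are non-coding, and the pseudogene Gm15739, and had 33 to 239 fragments in mouse 1 and 21 to 164 in mouse 2. H3K4me3 overlapped 85.7% of them in mice 1, 2 and 5 and 42.9% in mouse 4, and H3K27ac was at 1 region, in mouse 1. H3K27me3 overlapped 71.4% of them in mice 1, 2 and 5 and 0% in mouse 4, against 0.0738% to 0.541% of all regions. The median GC content of the 7 regions was 63.5%.

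Assigned to the gene with the nearest TSS, the regions reached 12965 genes. More regions in each cold mouse than in each warm mouse were found for 1507 genes (11.6%), and fewer for 6 (0.0463%). This count rests on the list of mouse 1, where most genes had none: against mouse 2 alone, over 12946 genes, 1510 had more regions in both cold mice (11.7%) and 2594 had fewer (20.0%). The lists of named genes were read against 11.6% for more than both warm mice and 20.0% for fewer than mouse 2.

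Of 26 brown adipocyte thermogenic genes 16 had a region, and 1 of the 16, Ppargc1a, had more in both cold mice. Ppargc1a, the coactivator that drives mitochondrial and thermogenic genes, had 0, 0, 2 and 3 regions in mice 1, 2, 4 and 5, but the regions of mouse 4 and mouse 5 were at 5 different places, so none was shared. They stood on 10 to 19 fragments, at percentiles of −log10 q from 16.6 to 56.4 within their lists. The median summit had 20 fragments in mouse 4 and 13 in mouse 5. Esrra, Bmp8b, Kcnk3 and Ppara had fewer in both cold mice than in mouse 2 (25.0%). Ucp1, which uncouples respiration to make heat, had 4 regions at positions -6542 to -1939 bp from its TSS, all in mouse 5 alone with 11 to 15 fragments, and all overlapping H3K27ac in 4 of 4 mice. The promoters of Ucp1, Cidea, Dio2, Ebf2, Adrb3 and Ppargc1a carried H3K27ac and H3K4me3 in all 4 mice, and an H3K4me1 peak in none of them except Cidea, a lipid droplet gene, in mouse 2. Of the 26 genes 20 had promoter H3K27ac in all 4 mice, and 0, 4, 1 and 3 had promoter H3K4me1 in mice 1, 2, 4 and 5. Elovl3 had promoter H3K27ac in mouse 2 alone and Bmp8b in no mouse, and Cox8b had promoter H3K4me1 in mice 2, 4 and 5.

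Among 26 pan-adipocyte genes 24 had a region, and 3 had more in both cold mice, which is 12.5%. These were Pparg, the master regulator of adipocyte differentiation, with 0, 6, 8 and 11 regions, Cd36, a fatty acid transporter, and Acaca, an enzyme of fatty acid synthesis. The 20 regions of Pparg were all in its introns and none was held by both cold mice alone. Cebpa, Cebpb, Fabp4, Plin4 and Dgat2 had fewer in both cold mice than in mouse 2 (20.8%). For lipolysis and fatty acid oxidation 3 of 19 genes, Acadm, Hadha and Ehhadh, had more (15.8%), and 5, Pnpla2, Plin5, Angptl4, Fgf21 and Acot2, had fewer than mouse 2 (26.3%). All 3 of the former encode enzymes of β-oxidation. Counted within 50 kb of the start site the direction of Fgf21 turned, with 0, 4, 5 and 6 regions in mice 1, 2, 4 and 5, and Pnpla2 (0, 15, 8 and 18) and Cebpa (0, 10, 5 and 10) were no longer lower in both cold mice.

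Sik2, a kinase restrained by cAMP signalling, was the 1 of 20 adrenergic and cAMP genes with more regions in both cold mice, and Adcy3, Adcy6, Adcy9, Creb3l1 and Akap1 had fewer than mouse 2 (25.0%). Adcy3, an adenylyl cyclase, had 0, 8, 7 and 7 regions, of which 1 in its intron was cold-only, on 19 and 13 fragments. Of 15 immediate early genes with a region 0 had more, and Fosl2, Jund, Atf3, Ier2 and Dusp1 had fewer than mouse 2 (33.3%). Lipe, the hormone-sensitive lipase, had 0, 2, 2 and 5 regions, 1 of them cold-only with 16 and 20 fragments.

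**Figure D5:**
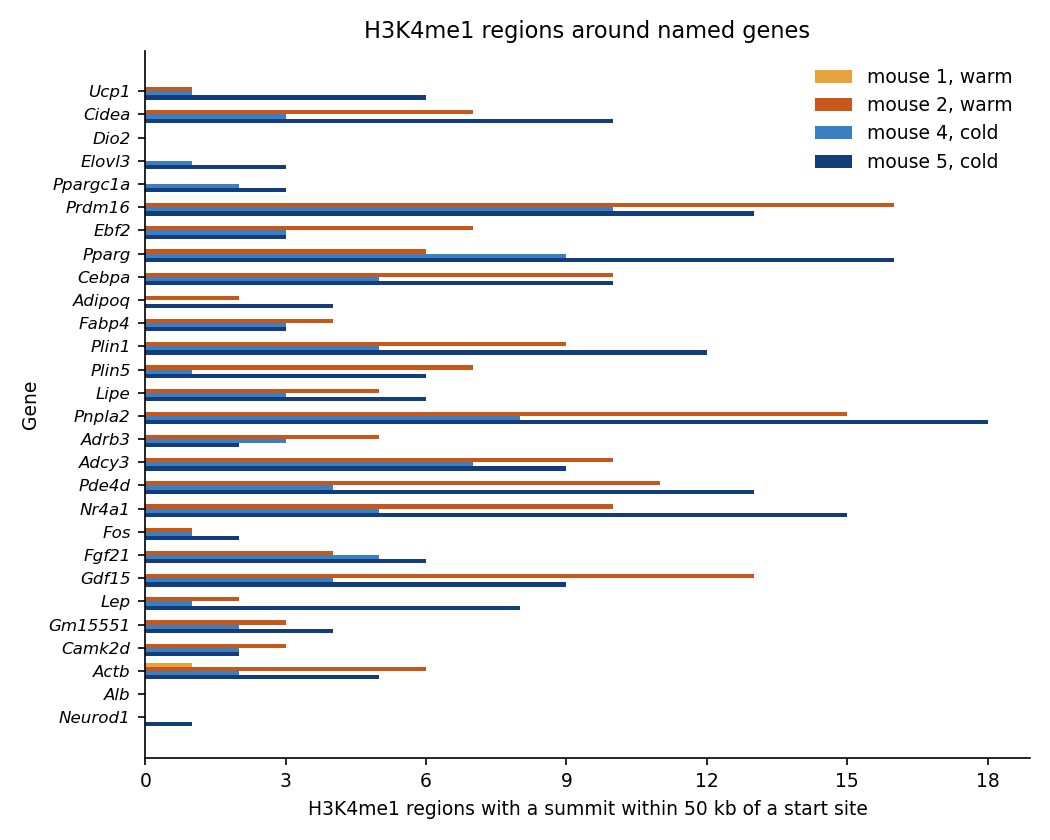
Number of H3K4me1 regions with a summit within 50 kb of a start site (x axis) for 28 named genes (y axis), 1 bar per mouse. Pparg, with 0, 6, 9 and 16 regions, and Ppargc1a, with 0, 0, 2 and 3, are higher in both cold mice, and Prdm16, with 0, 16, 10 and 13, is not.

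At the locus of Gm15551, a non-coding gene inside Camk2d for which the study used H3K4me1 and H3K4me3 to tell a promoter from an enhancer, mice 1, 2, 4 and 5 had 0, 2, 1 and 3 regions. The nearest was 1723 bp from the TSS, in mouse 5 alone, on 15 fragments. The region at -13047 bp, chr3:126681940-126682509, was shared by mice 2, 4 and 5 with 21, 23 and 13 fragments. No H3K4me1 peak lay within 1000 bp of the TSS in any mouse, where H3K4me3 was present in all 4. Lep had 4 regions in mouse 5 alone, Fgf21, a metabolic hormone, had 0, 2, 1 and 1, and Gdf15, a stress hormone, 0, 2, 1 and 3. The liver gene Alb had no region within 50 kb in any mouse, and the neuronal gene Neurod1 had 1, in mouse 5.

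Markers of other cells that the tissue could hold were counted beside a share of 23.4% of all genes, and 34.2% of protein-coding genes, with a region. Endothelial genes had a region in 12 of 20 cases, and 3, Pecam1, Rgcc and Mmrn2, had more in both cold mice (25.0%), while Esam and Sox18 had fewer than mouse 2 (16.7%). The summed regions of the 12 genes were 0, 11, 14 and 21 in mice 1, 2, 4 and 5. Macrophage genes had a region in 2 of 20 cases, with 0, 0, 2 and 1 regions in all, and lymphocyte genes in 3 of 20, with 0, 1, 3 and 2. Defining markers such as Adgre1, Cd68 and Cd3e had none. Muscle genes had a region in 6 of 20 cases (0, 5, 5 and 6 regions), fibroblast and mural genes in 7 of 20 (0, 7, 4 and 8), neuron and Schwann genes in 4 of 15 (0, 15, 9 and 15), and hepatocyte genes in 3 of 10 (0, 14, 8 and 14). Most regions of the last 2 lists belonged to 1 gene each, Mbp with 0, 10, 6 and 9 and Apoa1 with 0, 13, 8 and 12. The part of these cell types in the counts was not tested.

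The 10 genes with the most cold-only regions were chosen by this count. Ablim1, an actin-binding gene, had 10 cold-only regions out of 49, and 1, 17, 26 and 38 regions in mice 1, 2, 4 and 5. Nrp1, a co-receptor for VEGF and semaphorins, had 9 of 41, with 0, 11, 24 and 30. Nfia, a transcription factor of the brown fat programme, had 6 of 47, with 0, 21, 20 and 31. Nedd9, a focal adhesion scaffold, had 6 of 17, with 1, 2, 11 and 14, so cold-only regions were the largest part of its regions among the 10 genes. Acetylation was present at 0, 3, 7 and 5 of the 9 cold-only regions of Nrp1 in mice 1, 2, 4 and 5. Ablim1, Gm12158, Sptbn1, Nedd9 (0, 0, 1 and 3) and Sept9 (1, 1, 2 and 2) also had more acetylated cold-only regions in both cold mice than in either warm mouse. Nfia (2, 3, 2 and 3), Dlc1 (2, 5, 5 and 5), Gm24135 and Arhgef28 did not. Over all cold-only regions the acetylated shares were 16.1%, 38.2%, 48.1% and 45.7% in mice 1, 2, 4 and 5, so this direction was not particular to these genes. Dlc1 and Sptbn1, a gene of the spectrin skeleton, had 6 cold-only regions each.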

How the data were processed

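H3K4me1, H3K27ac, H3K4me3 and H3K27me3 ChIP-Seq peak lists of brown adipose tissue were used, 1 list per mouse and mark. According to the study's methods and the submitters' processing notes, the authors trimmed reads with cutadapt, aligned them with Bowtie2 to GRCm38 and called peaks with MACS2 against input. No source used here gives their versions or thresholds. Deposited columns hold the fold enrichment at the summit over input (a ratio) and the −log10 p-value and −log10 q-value; signal below the threshold is not listed, so absence from a list is no measurement of 0.

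Peaks of the 4 H3K4me1 lists overlapping by at least 1 bp were merged. Summits were annotated to GENCODE M21 basic TSS (window 1000 bp), and sequences were read from the GRCm38 reference. Regions were ranked by the median percentile of −log10 q within the lists that held them. Fragments per summit were solved from fold and p, on the assumption that MACS2 adds 1 to pileup and background, which solved 99.5% to 100% of the peaks per list and tested on simulated data. Depth is therefore a recovered value. Groups of mice were compared by exact permutation tests, two-sided, with Python 3.11.15, pandas, numpy and scipy. Named genes were 28 fixed genes, up to 10 top regions per pattern and the 10 genes with most cold-only regions. The members, the lists and the tests were chosen with earlier results of these data known. Mouse numbers come from the labels and pair marks of the same mouse. Alternatives were a −log10 q of at least 5, equal list lengths of 15676 peaks, other overlap, gap, TSS and chromosome settings, and leaving out each mouse.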

Additional observations from a re-analysis of the deposited data

Results flagged for a closer look

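Mouse 1 held 592 H3K4me1 peaks, and on the log10 scale its gap to the next list was 0.853 of the range of the 4 chow-fed mice, beyond Dixon's 95% limit for 4 samples. Chance flags about 1 in 20 groups, and 6 groups were examined.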

How the results depend on the processing

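Of the alternatives, 12 reversed direction, and 16 were counts that moved by more than 1.5 times or a similarity that moved beyond its spread. In 10 a p-value below the threshold of 0.05 was lost, and in 1 it was gained. The other 79 gave the same direction and the same side of the threshold as the reported value, or a count within 1.5 times of it. Some of these values moved far without passing a test: the share with H3K27ac of the same mouse went from 0.52 to 13.004 points at a −log10 q of at least 5, the TSS share from 0.41 to 2.60 points with a window of 2500 bp, and the width from 37.25 to 95.75 bp at that q. Leaving out a mouse turned the difference in log10 number of peaks (-0.0117 to 1.55), in TSS share (-2.38 to 3.19 points), in median width (-12 to 86.5 bp) and in the share with H3K27ac (-3.01 to 4.04 points), where without mouse 1 all 4 were below 0. The acetylation difference at cold-only regions was 2.99 points in chow-fed mice alone, 0.94 at a −log10 q of at least 5, 0.20 with equal list lengths, 4.21 against all regions (exact permutation p = 0.0571), 0.29 as a log2 ratio, chosen after seeing the data (exact permutation p = 0.2), and -5.54 to 2.125 without a mouse, reversing without mouse 7. At a −log10 q of at least 5 the regions of both cold mice alone fell to 466, of both warm mice alone to 3, and of both cold mice and mouse 2 to 700, the genes with more regions in both cold mice to 425, the Jaccard index of the cold mice to 0.170, and the log10 number of H3K4me1 against H3K27ac peaks to -1.06 (exact permutation p = 0.0286). Fewer peaks enter there. Without a mouse the counts were 2421 to 14534 for regions of the cold mice alone (9109 without mouse 2, 14534 without mouse 4, 6214 without mouse 5), 17 to 6559 for the warm mice alone, 7006 to 12155 for the cold mice and mouse 2, and 1510 to 6510 for the genes, since a pattern over fewer lists is met more often. No value without mouse 2 exists for the last region set. With the mouse as a replicate block, the differences between H3K4me1 and H3K27ac of -30.1 points in TSS share and -225.9 bp in width had an exact p of 0.125, and without a mouse they were -33.1 to -24.9 points and -234.5 to -207.5 bp with exact permutation p = 0.1, the lowest value these designs can reach. H3K4me3 at regions of all 4 mice stayed 13.6 to 18.2 points higher in the cold without any mouse. Depth is known only where a peak was listed, so presence below the minimum of mouse 1 is not measured.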

Other observations

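Mouse 1 alone held 31 regions, with a median fold of 17.3 and a highest fold of 134, while the highest folds of the lists of mice 2, 4 and 5 were 15.9, 11.1 and 19.4. Of the 31 regions 23 exceeded a fold of 10, 29 had no H3K27ac in any chow-fed mouse and 28 had no H3K4me3 in mouse 1.

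H3K4me1 peaks were scarce on the X chromosome, with 1, 16, 11 and 28 in mice 1, 2, 4 and 5, or 0.17%, 0.075%, 0.070% and 0.10% of each list. The H3K27ac lists of the same mice held 149, 486, 461 and 452 peaks there (0.88%, 1.71%, 1.51% and 1.48%) and the H3K4me3 lists 584, 576, 618 and 614 (2.88%, 2.74%, 2.77% and 2.71%).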
